A study of Mus musculus with 8 samples.

Results

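Globose basal cells are the dividing progenitors of the olfactory epithelium, and the 8 genes described here (Lgr5, Kit, Ezh2, Neurog1, Neurod1, Hes6, Insm1 and Sox11) encode factors that mark these cells or act in their turn towards neurons. They were taken by symbol, as listed, from a gene table of 54982 rows, in which each symbol was found. RNA was sequenced from olfactory mucosa taken at postnatal day 30 from mice: 4 libraries carried the deletion of the T elements TE1 and TE2, and 4 libraries were controls. The strain of all 8 samples was 129S6;C57BL/6J, and their labels say male. The T elements are candidate enhancers of the trace amine-associated receptor (Taar) genes, and where exactly the deleted DNA lies was not stated in the labels. None of the 8 genes is a Taar gene, and only Lgr5 is on the same chromosome. The nearer edge of Lgr5 lies 91.3 Mb beyond the end of the Taar family on chromosome 10.

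The labels of the 2 genotypes matched the targeted genes: the 14 olfactory Taar genes summed to 11 to 83 reads in each deletion library, against 2941 to 3594 reads in each control library. The library labelled deletion replicate 3 stood apart, because it held 15300.3 scaled reads of Xist, against 4.86 to 86.9 in the other 7 libraries. It also held 5.69 scaled reads of the Y-linked gene Ddx3y, against 2716 to 3087 elsewhere, which goes against its label of male. Changes and correlations that rest on this library are therefore given with and without it. Values are scaled reads, that is, reads per gene that the authors had divided by a factor for each library's size. The labels do not say whether the samples of a group are separate animals, so p-values measure only the spread between these samples, which may be technical.

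New olfactory neurons are made throughout life. Globose basal cells divide and give rise to cells that express Neurog1 and Neurod1, which leave the cell cycle and become immature neurons. The transcription factors of this sequence belong largely to the basic helix-loop-helix (bHLH) class, whose dimers bind the E-box, a short DNA motif with the letters CANNTG. In a whole mucosa these cells are a minority, and fewer cells of a type and less RNA per cell cannot be told apart in such bulk samples.

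The promoters of 4 of these factors are shown because their levels were among those that were lowest together in 1 library, as described further on. They are RefSeq windows of 300 bases in GRCm38.p6, from 250 bases before to 50 bases after an annotated start, on the minus strand and written 5′ to 3′, with each E-box in capitals. Neurog1 is at chr13:56252131-56252430, Neurod1 at chr2:79456587-79456886, Hes6 at chr1:91413989-91414288 and Sox11 at chr12:27342669-27342968.
Neurog1: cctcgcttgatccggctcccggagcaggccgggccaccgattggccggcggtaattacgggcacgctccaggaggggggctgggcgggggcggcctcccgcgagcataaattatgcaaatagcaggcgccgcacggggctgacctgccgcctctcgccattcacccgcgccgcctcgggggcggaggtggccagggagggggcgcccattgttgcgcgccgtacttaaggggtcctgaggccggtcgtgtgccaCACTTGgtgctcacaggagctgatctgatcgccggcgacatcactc
Neurod1: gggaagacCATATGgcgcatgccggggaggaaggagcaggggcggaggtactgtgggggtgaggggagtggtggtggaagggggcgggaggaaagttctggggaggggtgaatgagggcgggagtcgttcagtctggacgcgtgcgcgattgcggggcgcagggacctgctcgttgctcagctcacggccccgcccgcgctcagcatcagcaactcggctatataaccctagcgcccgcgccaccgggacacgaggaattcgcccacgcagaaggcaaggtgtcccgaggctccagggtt
Hes6: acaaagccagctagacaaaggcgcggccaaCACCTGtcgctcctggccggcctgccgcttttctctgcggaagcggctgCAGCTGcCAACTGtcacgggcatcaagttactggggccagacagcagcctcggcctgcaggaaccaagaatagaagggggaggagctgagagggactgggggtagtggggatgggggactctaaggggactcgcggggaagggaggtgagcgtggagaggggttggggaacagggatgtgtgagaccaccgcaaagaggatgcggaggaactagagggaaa
Sox11: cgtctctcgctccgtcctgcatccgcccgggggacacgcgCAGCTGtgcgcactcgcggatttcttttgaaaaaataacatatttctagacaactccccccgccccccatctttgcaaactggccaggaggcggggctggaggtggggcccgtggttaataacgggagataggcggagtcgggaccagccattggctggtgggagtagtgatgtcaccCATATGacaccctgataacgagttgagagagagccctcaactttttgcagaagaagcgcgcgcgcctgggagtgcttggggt
Neurog1 and Neurod1 had 1 E-box each in these windows, Sox11 had 2 and Hes6 had 3. Hes6 has another listed start, whose window held 1. Of 32851 mouse promoter windows of the same length, 72.3% held at least 1 match on either strand, and 17.6% held 3 or more. The narrower form CAGATG, itself an E-box and the form favoured by Neurog and Neurod proteins, had 0 matches in the 8 windows available for 6 of the 8 genes, against 17.2% of all windows. A match is a description of letters, not a binding site.

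None of the 8 genes differed in level between deletion and control mucosa beyond the spread between libraries. With limma on log2(scaled reads + 1), 0 of 8 had an adjusted p under 0.05, where 0.0728% of the 21974 tested genes did. At an unadjusted p under 0.05 the count was also 0 of 8, against 3.5% of tested genes, and edgeR's quasi-likelihood test and DESeq2 called 0 of 8 as well. In 0 of 8 genes were the groups free of overlap, against 2.2% of tested genes. The median log2 difference, deletion minus control, was -0.023 over the 8 genes and 0.018 over all tested genes, with 3 genes higher and 5 lower. The 95% intervals of the 8 fold differences together ran from 0.727 to 1.42, with Neurod1 the widest upwards and Neurog1 downwards. Those of Sox11 (0.848 to 1.11) and Ezh2 (0.868 to 1.12) were narrower. All 8 genes passed the filter on low counts, with 155 to 16106 reads per library.

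**Figure D1:**
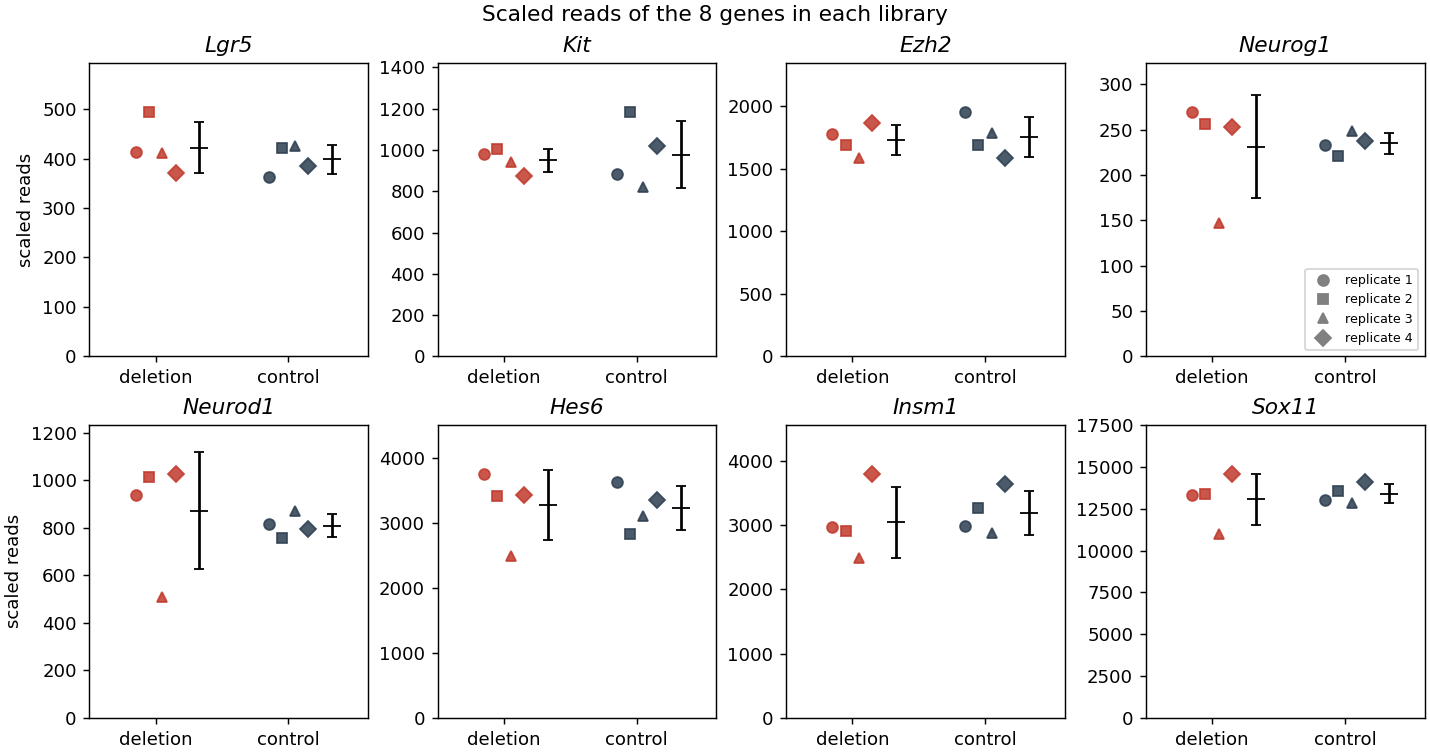
Scaled reads of the 8 genes in each library, deletion left of control, with points for libraries and bars for the group mean and SD (n = 4 each). The groups overlap in all 8 genes, and deletion replicate 3 is the lowest point for Neurog1, Neurod1, Hes6, Insm1 and Sox11.

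The surface receptors showed nothing beyond library spread. Lgr5 (ENSMUSG00000020140.15, chromosome 10, 115450311 to 115587780, minus strand) encodes a receptor for R-spondins that strengthens Wnt signalling and labels a subset of globose basal cells. Its scaled reads were 413, 494, 410.4 and 372 in deletion libraries and 363, 421, 425 and 385 in control libraries. The groups overlapped, with deletion replicate 2 the highest library and control replicate 1 the lowest. Lgr5 averaged 422 ± 51.6 in deletion libraries and 399 ± 29.8 in controls (SD, n = 4 each), a log2 difference of 0.078 ± 0.11 (SE; limma adjusted p = 0.885).

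Kit (ENSMUSG00000005672.12, chromosome 5, 75574916 to 75656722, plus strand) encodes the receptor tyrosine kinase for stem cell factor, found on globose basal cells and also on mast cells and melanocytes. Kit had 979, 1004, 940.3 and 876 scaled reads in deletion libraries, against 881, 1184, 822 and 1021 in control libraries. All 4 deletion values lay inside the range of the controls. The log2 difference was -0.028 ± 0.11 (SE; limma adjusted p = 0.956), with means of 949.8 ± 55.9 in deletion and 977 ± 161 in control libraries (SD, n = 4 each). Among 8 mast cell markers, 7 had too few reads to test, at 0 to 18.0 scaled reads in any library. The eighth, Hdc, averaged 3503 ± 276 scaled reads in deletion and 2964 ± 461 in control libraries (SD, n = 4 each), a log2 difference of 0.25 ± 0.11 (SE; limma adjusted p = 0.869). The summed melanocyte markers reached 50.6 to 63.9 scaled reads in deletion libraries and 54.1 to 131 in controls.

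Ezh2 (ENSMUSG00000029687.16, chromosome 6, 47530139 to 47595341, minus strand) encodes the catalytic subunit of Polycomb repressive complex 2, which methylates histone H3 at lysine 27 and is abundant in dividing progenitors. It had 1776, 1691, 1590.5 and 1867 scaled reads in deletion libraries and 1955, 1691, 1785 and 1585 in control libraries. Both the highest and the lowest library were controls. Ezh2 averaged 1731 ± 118 in deletion and 1754 ± 157 in control libraries (SD, n = 4 each), a log2 difference of -0.017 ± 0.085 (SE; limma adjusted p = 0.965). Its coefficient of variation over the 8 libraries, 7.41%, was the lowest of the 8 genes.

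The proneural factors Neurog1 and Neurod1 separated the libraries in the same way, and 1 deletion library set most of their spread. Neurog1 (ENSMUSG00000048904.5, a single-exon gene on chromosome 13, 56250478 to 56252163, minus strand) encodes a bHLH activator needed for olfactory neurons to form. Its scaled reads were 269.7, 257, 147 and 253 in deletion libraries and 233, 221, 249 and 238 in controls. Deletion replicates 1, 2 and 4 lay above every control and deletion replicate 3 below every one. Neurog1 averaged 232 ± 56.9 in deletion and 235 ± 11.5 in control libraries (SD, n = 4 each), a log2 difference of -0.061 ± 0.18 (SE; limma adjusted p = 0.941).

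Neurod1 (ENSMUSG00000034701.9, chromosome 2, 79452521 to 79456751, minus strand) encodes the bHLH factor that follows Neurog1 in neuronal precursors. It had 939, 1014, 507 and 1028 scaled reads in deletion libraries and 814, 758, 871 and 794 in control libraries. The pattern was that of Neurog1: 3 deletion libraries above all controls and deletion replicate 3 below them. The mean was 872 ± 246 in deletion and 809 ± 47.2 in control libraries (SD, n = 4 each), with a log2 difference of 0.055 ± 0.20 (SE; limma adjusted p = 0.951).

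Without deletion replicate 3, Neurod1 averaged 994 ± 48.0 in the remaining deletion libraries, against 809 ± 47.2 in controls (SD, n = 3 and 4), a log2 difference of 0.30 ± 0.088 (SE). Its limma p was then 0.00657 unadjusted and 0.833 adjusted over 22577 genes, so it did not pass the test. Neurog1 differed by 0.14 ± 0.11 on the log2 scale in the same fit (SE; limma adjusted p = 0.833). In that fit 0 of 8 genes were called, against 0.062% of tested genes. Neurod1 was the 1 of 8 with an unadjusted p under 0.05, against 3.25% of tested genes. The groups were free of overlap in 2 of 8 genes, Neurog1 and Neurod1, against 5.34% of tested genes, and 7 of the 8 log2 differences were positive. These shares are for 3 deletion libraries against 4 controls.

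Hes6 (ENSMUSG00000067071.8, chromosome 1, 91411483 to 91414038, minus strand) encodes a bHLH-Orange protein that counters the repressor Hes1 and so favours neuronal differentiation. It had 3754, 3402, 2494 and 3417 scaled reads in deletion libraries and 3627, 2830.0, 3101 and 3344 in controls. Deletion libraries were both the highest and the lowest of the 8. The log2 difference was 0.0079 ± 0.12 (SE; limma adjusted p = 0.989), and its sign turned under DESeq2, TMM scaling and scaling to library totals. The means were 3267 ± 540.3 in deletion and 3226 ± 340.2 in control libraries (SD, n = 4 each).

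Insm1 (ENSMUSG00000068154.5, a single-exon gene on chromosome 2, 146221921 to 146225020, plus strand) encodes a zinc finger repressor that moves progenitors towards their terminal, neuron-producing division. Insm1 had 2969.7, 2899, 2494 and 3799.8 scaled reads in deletion libraries, against 2986, 3263, 2872 and 3629.6 in control libraries. Deletion replicate 4 was the highest library, followed by control replicate 4. The log2 difference was -0.079 ± 0.12 (SE; limma adjusted p = 0.889), with means of 3041 ± 548 in deletion and 3187 ± 337 in control libraries (SD, n = 4 each).

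Sox11 (ENSMUSG00000063632.6, a single-exon gene on chromosome 12, 27334264 to 27342574, minus strand) encodes an HMG box factor that drives early neuronal genes. It had 13315, 13382, 10989 and 14611 scaled reads in deletion libraries and 13045, 13555, 12852 and 14128 in control libraries. As for Insm1, deletion replicate 4 was the highest and deletion replicate 3 the lowest. Sox11 averaged 13074 ± 1512 in deletion and 13395 ± 571 in control libraries (SD, n = 4 each), a log2 difference of -0.042 ± 0.090 (SE; limma adjusted p = 0.921).

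**Figure D2:**
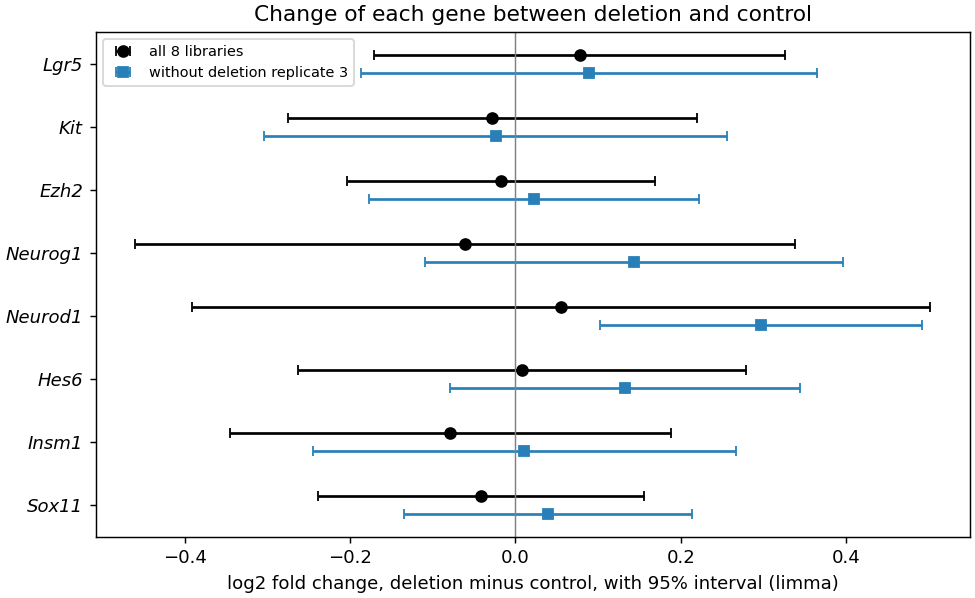
Log2 difference of each gene, deletion minus control, with its 95% interval, over all 8 libraries and without deletion replicate 3. Every interval over all libraries includes 0; that of Neurod1 does not once that library is left out (0.30, against 0.055 with it).

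In the authors' deposited table, the log2 fold changes of the 8 genes, control over deletion, lay between -0.065 and 0.052, with adjusted p-values of 0.931 to 0.987.

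Per kilobase of exon, the levels spanned a wide range. Hes6 was the highest, with a mean of 1795 scaled reads per kilobase over the 8 libraries, followed by Sox11 with 1592 and Insm1 with 1005. Neurod1 (308) and Ezh2 (261) came next, then Neurog1 (138), Kit (108) and, lowest, Lgr5 (40.0). The ranges over libraries overlapped between the neighbours Hes6 and Sox11, Neurod1 and Ezh2, and Neurog1 and Kit. Hes6, for example, ran from 1379 to 2076 and Sox11 from 1322 to 1758 scaled reads per kilobase. The other neighbours in the order did not overlap.

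Relative to the median of the other 7 libraries, deletion replicate 3 held 58.2% of Neurod1, 59.1% of Neurog1, 73.3% of Hes6, 82.1% of Sox11 and 83.5% of Insm1. The same measure was 89.5% for Ezh2, 96.0% for Kit and 99.5% for Lgr5. These 5 transcription factors had their lowest value there, as did 11.6% of all tested genes. Neurod1 and Neurog1 stood at percentiles 3.0 and 3.14 of the tested genes in this measure. The receptors Kit and Lgr5 stood at percentiles 37.9 and 47.4.

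**Figure D3:**
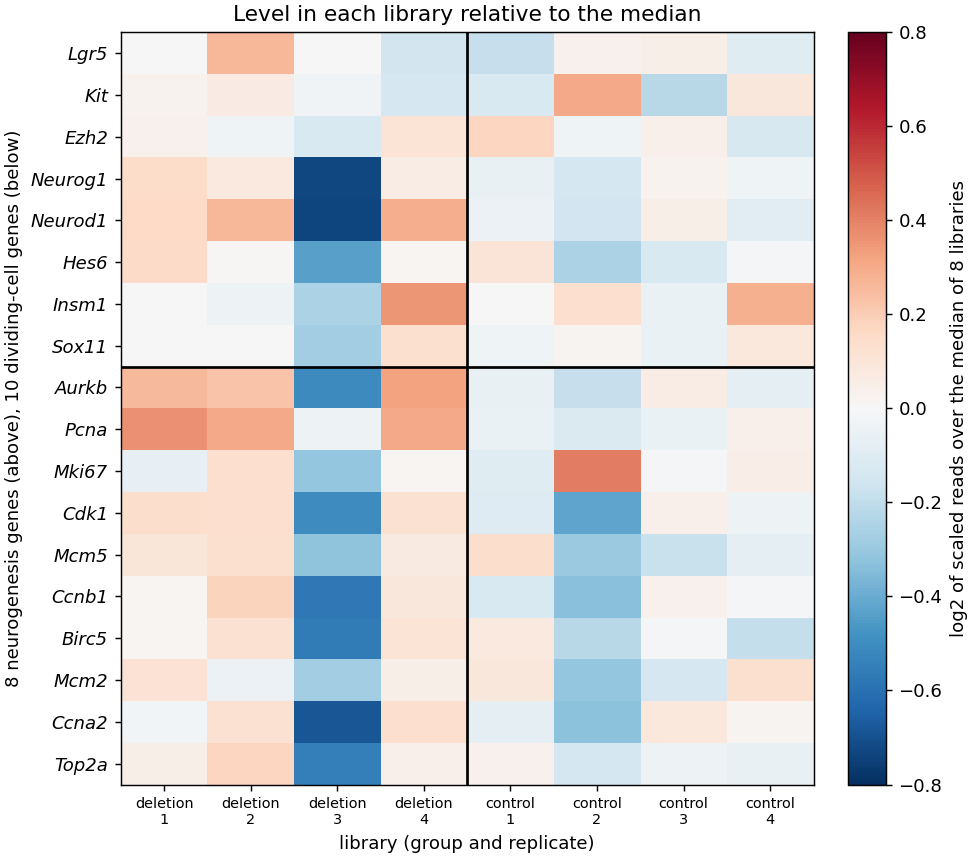
Log2 of scaled reads over the median of the 8 libraries, for the 8 genes above and 10 genes of dividing cells below, deletion libraries left of control libraries. Deletion replicate 3 is low for Neurog1 and Neurod1 (147 and 507 scaled reads) and for 8 of the 10 dividing-cell genes, where it holds the lowest value of all libraries.

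Genes of dividing cells were also low in deletion replicate 3. Their 10 genes summed to 10738 scaled reads there, against 14960 to 15725 in the other deletion libraries and 13315 to 13975 in controls, and 8 of the 10 had their lowest value there. Top2a, a marker of the later cell cycle, had 3137 scaled reads in that library. In the same library, summed horizontal basal cell markers stood at 119% of the median of the other 7. The sums of sustentacular markers stood at 122% and of endothelial markers at 160.02%. Of the sustentacular sum of 696500 scaled reads there, 408042 were of Cyp2a5, which stood at 136%. The other sustentacular genes were at 117% (Cyp1a2), 116% (Ugt2a1), 110% (Sec14l3), 103% (Cyp2g1) and 92.4% (Ermn). Ugt2a1 had only 17.1 scaled reads there, so its percentage rests on few reads. Immature neuron markers stood at 93.5% and mature neuron markers at 96.2%. The part of these cell types, or of the sex-linked genes, in the low values of Neurog1 and Neurod1 was not tested.

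Ratios between the genes differed in the same library. Per kilobase, Neurod1 was 2.06 to 2.51 times Neurog1 in all 8 libraries, and 2.13 times in deletion replicate 3. Insm1 over Neurod1 was 4.33 there, against 2.52 to 4.03 in the other 7 libraries. Sox11 over Neurod1 was 7.12 there, against 4.33 to 5.87. Hes6 over Neurog1 was 15.8 there, against 11.6 to 14.5. The pair of proneural genes thus kept its ratio within the range of the other libraries. The ratios of Insm1 and Sox11 to Neurod1, and of Hes6 to Neurog1, were at their highest. These ratios restate the levels relative to the other libraries given above and are not separate evidence.

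Across the 8 libraries, 28 pairs of genes were correlated on the log2 scale, and 2 passed a two-sided exact permutation test adjusted over the 28. Neurog1 and Neurod1 had a Pearson r of 0.95 (n = 8, exact permutation p = 0.00154, adjusted p = 0.0215) and a Spearman rho of 0.88 (exact permutation p = 0.00724, adjusted p = 0.101). Their r was 0.90 without the 2 libraries farthest from the median of Neurog1, and 0.83 without deletion replicate 3 (n = 7, exact permutation p = 0.0252, adjusted p = 0.353), where the pair did not pass. For this pair the libraries fall into 3 separate sets: deletion replicates 1, 2 and 4, the controls, and deletion replicate 3. Its r and p therefore compare sets as well as single libraries. Within deletion replicates 1, 2 and 4 the genes ran in opposite order. In the controls both were lowest in replicate 2 and highest in replicate 3. Insm1 and Sox11 had an r of 0.91 (n = 8, exact permutation p = 0.000198, adjusted p = 0.00556) and a rho of 0.90 (exact permutation p = 0.00456, adjusted p = 0.101). For that pair r was 0.92 without the 2 farthest libraries and 0.95 without deletion replicate 3 (n = 7, exact permutation p = 0.00159, adjusted p = 0.0444). As deviations from the group means, r was 0.98 for Neurog1 with Neurod1 and 0.91 for Insm1 with Sox11. Leaving deletion replicate 3 out of r, but not out of the group means, gave 0.86 and 0.94. The other deletion libraries then keep an offset from the mean, so these values do not show variation within groups alone. On ranks, 0 of the 28 pairs passed.

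Most other relations among the 5 transcription factors rested on deletion replicate 3. Their 10 pairs, a set chosen after the values were seen, had a median r of 0.81 with it and of 0.13 without it, from -0.22 to 0.95. Neurog1 and Sox11 had an r of 0.82 with all libraries and of 0.00 without that one, whereas Neurog1 and Hes6 had 0.86 and 0.65. The other 18 pairs, each with Lgr5, Kit or Ezh2, had a median r of 0.11, from -0.53 to 0.60, with all libraries. Without deletion replicate 3 their median was -0.22, from -0.65 to 0.40.

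**Figure D4:**
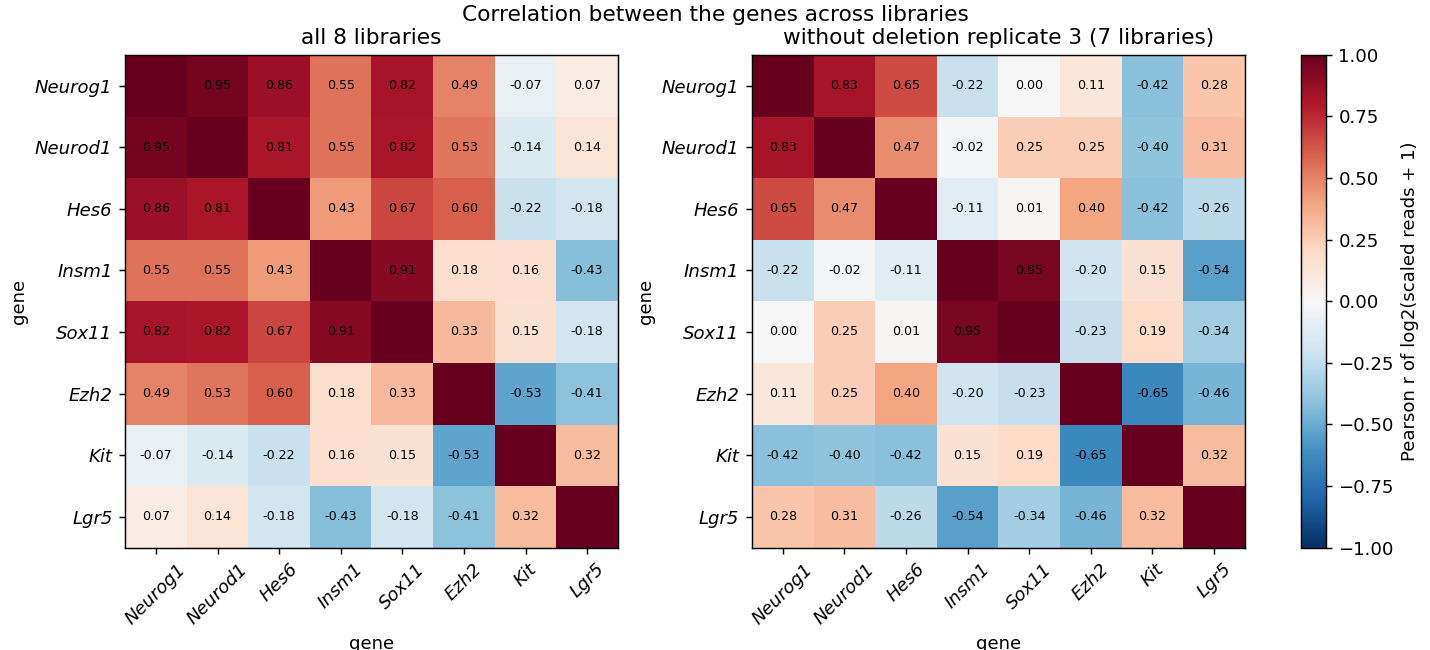
Pearson r between each pair of the 8 genes over the libraries, with all 8 libraries and without deletion replicate 3. Neurog1 with Neurod1 (0.95 and 0.83) and Insm1 with Sox11 (0.91 and 0.95) stay high in both panels. For Neurog1 with Neurod1 the libraries fall into separate sets, and deletion replicate 3 is only one of them.

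Set against the summed dividing-cell genes, Neurod1 placed the libraries in 3 separate sets, a pattern looked at after values were seen. Deletion replicates 1, 2 and 4 held 14960 to 15725 scaled reads of dividing-cell genes with 939 to 1028 of Neurod1. The 4 controls held 13315 to 13975 with 758 to 871, and deletion replicate 3 held 10738 with 507. Because the libraries fall into separate sets of fewer than 6, no correlation is given. The sets are of the sum, and the dividing-cell genes were mixed one by one. Mki67, for example, had 2410, 2761 and 2541 scaled reads in deletion replicates 1, 2 and 4, inside the controls' 2352 to 3343. Over all 8 libraries, 0 of the 10 dividing-cell genes passed with limma. Their log2 differences ran from -0.14 for Mki67 to 0.28 for Pcna, with a median of 0.028. Without deletion replicate 3 their median was 0.18, against 0.011 over all tested genes, and 0 of the 10 passed.

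**Figure D5:**
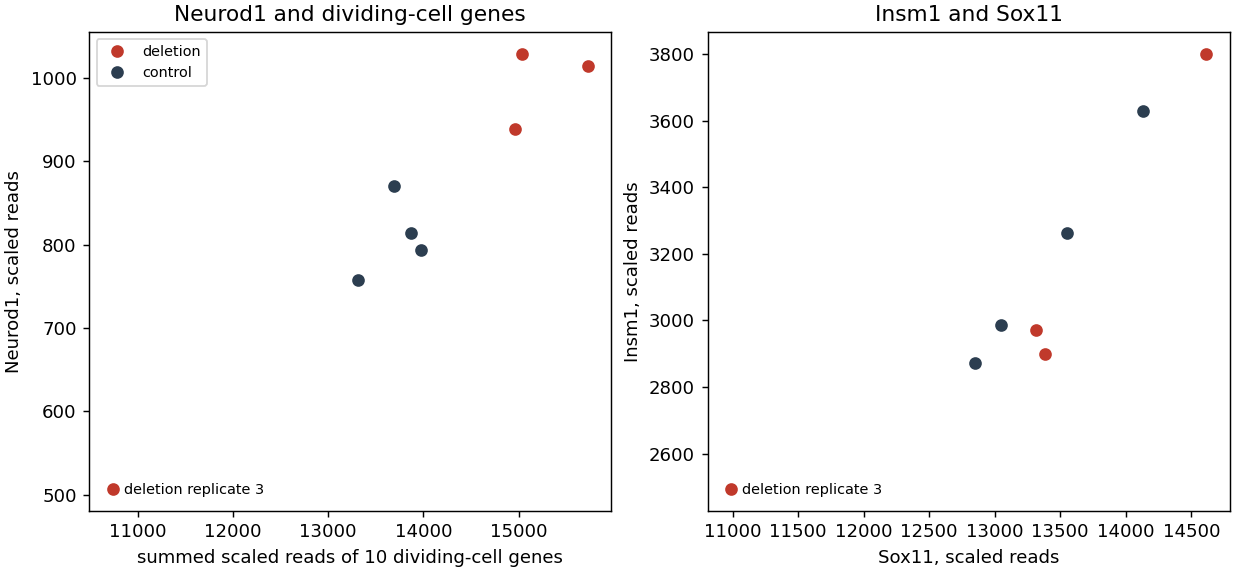
Scaled reads per library of Neurod1 against the sum of 10 dividing-cell genes (left) and of Insm1 against Sox11 (right), with deletion and control libraries in different colours. On the left the libraries fall into 3 sets, with deletion replicate 3 at 507 scaled reads of Neurod1; on the right they form a gradient that mixes the groups above it.

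The genes most like each factor over the 8 libraries were taken by Pearson r among 14696 genes with a mean of at least 100 scaled reads, as a description. For Neurog1 they were Pclaf (r = 1.00, and 0.97 without deletion replicate 3) and Rad51c (0.99, and 0.88 without it), which encode a partner of the replication clamp and a recombination protein. For Neurod1 they were Dbf4 (0.98, and 0.96 without it), which encodes the activator of a replication kinase, and Cep57l1 (0.97, and 0.92 without it). Sox11 was most like Fezf1 (0.99), a zinc finger factor of olfactory neuron development, and Map10 (0.98). Insm1 was closest to Fam129c (0.97) and AC124992.1 (0.93), and Hes6 to Chst8 (0.99) and Snrpa (0.98). Kit was closest to Plxnb1 and Pias3 (both 0.98), Ezh2 to Zfp397 (0.96) and RP23-90A8.2 (0.95), and Lgr5 to RP23-393B19.1 (0.88) and Clip3 (0.86). Without deletion replicate 3, r was 0.97 for Fezf1, 0.93 for Map10, 0.95 for Fam129c, 0.92 for AC124992.1, 0.98 for Chst8 and 0.96 for Snrpa with their factors. For Kit, Ezh2 and Lgr5 it was 0.98 for Plxnb1, 0.99 for Pias3, 0.95 for Zfp397, 0.94 for RP23-90A8.2, 0.89 for RP23-393B19.1 and 0.86 for Clip3.

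Partners and pathway genes of the 8 factors were counted in 7 lists with 79 tested genes of 81. With limma 0 of the 79 passed an adjusted p under 0.05, as with edgeR and DESeq2. Of all tested genes, 3.5% had an unadjusted p under 0.05 with limma, 4.21% with edgeR and 4.54% with DESeq2. Of the 79, 1 gene had such a p with each tool. That gene was Kitl, the ligand of Kit, with 2736 ± 166 scaled reads in deletion and 2381 ± 108 in control libraries (SD, n = 4 each). Its log2 difference was 0.20 ± 0.072 (SE; limma adjusted p = 0.869). The medians of the 7 lists lay between 0.017 and 0.082 on the log2 scale, against 0.018 over all tested genes.

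For the proneural factors, 0 of 12 tested transcription factors of progenitors passed in either direction, with a log2 difference of 0.10 for Six4. Of 7 bHLH dimer partners and Id inhibitors 0 passed, and Id1, Id2 and Id3, which block bHLH dimers, differed by 0.18, 0.082 and 0.11, and the more abundant Id4, named after its values were seen, by -0.11. Of 18 genes of the Notch pathway, whose signalling holds back neuronal fate, 0 passed. The ligand gene Jag1 differed by 0.13, and the effector genes Hey1 and Hes1 (Hes6 counters the Hes1 protein) by 0.17 and 0.14. For Kit, 0 of 8 genes of its ligand and signalling partners passed, with 0.085 for Pik3ca and 0.083 for Gab2.

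For Lgr5, 0 of 14 tested paralogs, R-spondins and Wnt genes passed, with 0.27 for Lgr6, 0.22 for Rspo1 and 0.12 for Ctnnb1, the gene of beta-catenin. For Ezh2, 0 of 10 other subunits of its complex passed, with 0.17 for Rbbp7, -0.086 for Phf1 and 0.080 for Aebp2. For Insm1, 0 of 10 genes of the Lsd1-CoREST-Hdac corepressor passed, with -0.21 for Rcor3, -0.18 for Rcor2 and -0.22 for Gse1. All of these are limma log2 differences, deletion minus control, and the lowest adjusted p was 0.869 in each list.

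Some of the 8 genes share their locus with other genes, and the counter's strand setting is not given in the sources used here. Neurod1 lies wholly within Cerkl on the same strand, and Cerkl had 229 to 313 scaled reads in deletion libraries and 261 to 367 in controls. The antisense Gm26755, also at Neurod1, had 0.948 to 3.25 scaled reads in deletion libraries and 1.62 to 15.5 in controls. Lgr5 overlaps RP23-43M12.1, with 3.30 to 5.69 in deletion libraries and 3.93 to 17.6 in controls. Ezh2 overlaps Gm26625 and RP24-194J12.3, which reached at most 21.7 and 8.53 scaled reads in deletion libraries, and 25.9 and 12.9 in controls. For these 3 genes, reads of the overlapping gene could be counted to either.

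Markers of the cells around the progenitors were counted in 14 lists with 83 tested genes of 103, and 0 passed with limma, edgeR or DESeq2. An unadjusted p under 0.05 was seen for 7 of these 83 with limma, where 3.5% of all tested genes had one. It was seen for 7 of the 83 with edgeR and 10 with DESeq2, against 4.21% and 4.54% of all tested genes. With each tool the share among the 83 was above that over all tested genes. List medians ran from -0.36 to 0.43 on the log2 scale. Omp, the marker of mature olfactory neurons, averaged 184504 ± 9153 scaled reads in deletion and 171013 ± 24945 in control libraries (SD, n = 4 each). Among marker genes chosen by level, Bpifa1 and Reg3g of the respiratory epithelium and glands had log2 differences of 0.43 and 0.65, and Cyp2a5 of sustentacular cells 0.24 (limma adjusted p = 0.869 each). Marrow, lymphocyte and olfactory bulb lists had medians of -0.31, -0.33 and -0.36.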

How the data were processed

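Total RNA was isolated from olfactory mucosa with a Qiagen RNeasy kit, and ribosome-depleted stranded libraries were made with an Illumina TruSeq kit, per the labels' protocols. STAR 2.6.0, DESeq2 and the build GRCm38.p6 are named in the submitters' processing notes; for the counter, its strand setting and the annotation, nothing is given in the sources used here. Each deposited per-sample signal is a read count that the authors had divided by the library's size factor, as the values show: 100% of them came out as whole reads within a tolerance of 0.001. Recovered depth was 31655524 to 50748777 reads per library. The deposited table also holds the authors' log2 fold change and p-value, printed only where that table is named. Columns of the deletion group are named unlike their samples' titles, so the number matched them. Of the rows, 54161 matched GENCODE M21 by Ensembl identifier and 821 did not.

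The test was limma 3.58.1 (R 4.3.3) on log2(scaled reads + 1) with trend and robust moderation, on 21974 genes kept by filterByExpr of edgeR 4.0.16 (minimum count 10), with Benjamini-Hochberg adjustment at 0.05. A fold on this scale understates changes of low genes. It was tested on simulated data. Alternatives were edgeR's quasi-likelihood test on recovered reads (16 genes called), DESeq2 1.42.0, other scalings, pseudocounts and filters, a replicate block, and leaving out each library. Correlations were tested by permutation over all 40320 pairings. Levels per kilobase used GENCODE exon lengths. Promoters are from RefSeq (6 of 8 genes matched). Named genes are the 8 members, genes overlapping them, the 3 smallest p-values of each pathway list, the 2 highest levels of each marker list (some given here only by list), and the 2 genes most like each member; some list genes are not reported here. Members and lists were chosen with earlier results of these data known.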

Additional observations from a re-analysis of the deposited data

Results flagged for a closer look

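In each group of 4 libraries, the gap between an extreme library and its neighbour was compared with the group's whole range, over 58 groups of values, and 4 passed Dixon's critical value at the 95% level. Chance marks about 1 group in 20. Neurog1 stood apart in deletion replicate 3, with 147 scaled reads against 253 to 269.7 in the other deletion libraries. The summed genes of dividing cells stood apart in the same library, with 10738 scaled reads against 14960 to 15725. So did the summed mast cell markers, with 3118 against 3643 to 3713 scaled reads, nearly all of them from Hdc. The summed melanocyte markers stood apart in control replicate 3, with 131 against 54.1 to 62.8 scaled reads in the other control libraries.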

How the results depend on the processing

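The 8 genes had 0 calls in the main test and under each of its 18 alternatives, with a lowest adjusted p of 0.728. Genes called over the whole table numbered 16, and 13 to 31 when 1 library was left out, with 31 without deletion replicate 4. The log2 difference of Hes6 (0.0079) reversed to -0.0028 with DESeq2, -0.021 with library totals and -0.011 with TMM scaling; the cause was not tested. Without deletion replicate 3, 1 pair of genes passed the correlation test in place of 2. Leaving out 1 library at a time moved the log2 differences from -0.00025 to 0.14 for Lgr5, -0.11 to 0.069 for Kit, -0.065 to 0.036 for Ezh2, -0.15 to 0.14 for Neurog1, -0.042 to 0.30 for Neurod1, -0.064 to 0.13 for Hes6, -0.19 to 0.011 for Insm1 and -0.098 to 0.039 for Sox11. Without a filter on low counts, the median log2 difference of all genes was -0.20. Replicate numbers are shared between groups, but same-numbered libraries did not deviate together in every pair (r = 0.33, 0.088, -0.17 and 0.053), and only deletion libraries 1 and 2 correlated best with their own number. With the replicate block, 14 genes and 0 of the 8 were called. The 4 libraries a group limit the differences that could be seen.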
